A study of Mus musculus with 30 samples.

Results

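Cultured adipose-derived stem cells from young obese mice were compared with those from aged lean mice in 16 of the 30 RNA-seq libraries of the series, 8 libraries in each group. The members of the comparison are all expressed genes, 14438 of the 38561 genes in the count table, chosen by level and not by how they differed. All donors were male C57BL6/J mice, and each library came from the cells of 1 mouse. Young obese mice ate a high-fat diet with 60% of its energy from fat, mostly lard, from weaning and were killed at 20 weeks. Aged lean mice ate control chow and were killed at 52 weeks. The series also holds 8 young lean and 6 aged obese libraries, which entered the fit and are quoted only for their levels. The 2 groups differ in both age and diet, so a difference between them cannot be assigned to either from these libraries alone.

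Adipose-derived stem cells are the stromal progenitors of fat tissue. They divide, lay down matrix, send growth factors and cytokines to their neighbours and can become adipocytes, bone-forming cells or cartilage cells. In obese fat such cells are drawn into making new adipocytes and meet inflammatory signals, and with age they are known to divide less and to gather markers of senescence, a lasting exit from the cell cycle. Here the cells came from inguinal, subcutaneous fat, were sorted as Sca-1+, CD34+, CD31-, CD45- and Ter119-, and were then grown to passage 2, so the values describe cultured offspring of the sorted cells and not cells in the tissue. Which mice shared a cage of 4 to 5 is not given in the sources used here.

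Sort markers were read first. Ly6a, the gene of Sca-1, had 549.5 to 811 CPM (a gene's counts relative to the scaled library total) in young obese and 754 to 1207 in aged lean libraries. Cd34 was low and uneven, with a lowest level, median and highest level of 0.912, 2.07 and 27.9 CPM in young obese and 1.07, 8.33 and 28.7 CPM in aged lean libraries. Young obese 1 and 2 held 26.1 and 27.9 CPM, and the other young obese libraries at most 2.79, while the aged lean libraries covered the whole range. Neither Ly6a nor Cd34 passed the test. Pecam1 (CD31) reached at most 0.209 CPM, and Ptprc (CD45) had 2 counts in all 16 libraries together. Of 12 macrophage markers Cd163 had no count, Adgre1 had 2 counts in all, and their summed level was 21.1 to 34.6 CPM in young obese and 13.5 to 39.96 in aged lean libraries, mostly from Csf1r. The 10 mature adipocyte markers, with Lep at 0, summed to 0.486 to 2.25 CPM in young obese and 0.578 to 28.9 CPM in aged lean libraries. Medians were close: Adipoq had 0.217 CPM in young obese and 0.330 in aged lean libraries, with highest levels of 1.13 and 16.4. Plin1 had medians of 0.242 and 0.279 and highest levels of 0.671 and 7.94. With single libraries left out, the median log2 difference of the 4 tested markers ran from -2.72 to 0.0014. In such bulk samples fewer cells of a type and less RNA per cell cannot be told apart.

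Counts in genes were 33097229 to 39997009 per young obese and 32053761 to 40600014 per aged lean library. A chi-square statistic per gene compared libraries of a group in pairs, and no pair held identical values. Young obese libraries fell into close sets: the statistic was 8.18 for numbers 1 and 2 and 6.44 to 22.8 among 18, 19, 20, 21 and 23, against 128 to 375 for any pair with 22 and 157 to 207 between the first sets. Among aged lean libraries it ran from 18.4, for numbers 19 and 20, to 277. That pair was as close as some young obese ones and was counted as 2 libraries, also where close young obese libraries were summed. The test treats the 8 libraries of a group as independent, which these close sets and that pair may not be. Reads that fell in no gene made up 4.42% to 6.87% of young obese and 6.04% to 8.75% of aged lean reads (exact two-sided permutation p = 0.0126, adjusted over 6 technical measures 0.0378). For each library, the deviation of log2 CPM from each gene's mean over all 30 libraries was fitted on log2 transcript length and GC content together. The slope on length was 0.0216 to 0.177 in young obese and -0.066 to 0.015 in aged lean libraries. Those groups did not overlap, so long transcripts had relatively more counts in young obese libraries (exact two-sided permutation p = 0.000155, the smallest that the 12870 splits allow, adjusted 0.00093). The slope was 0.177 and 0.164 in young obese 1 and 2, and 0.0216 to 0.0456 in the other young obese libraries. The permutation tests, too, treat libraries as independent, which the close sets may not be.

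Few genes separated young obese from aged lean cells. Of 14438 genes, 79 (0.547%) were called at a Benjamini-Hochberg adjusted p below 0.05 in edgeR's quasi-likelihood test. Of these, 37 (0.256%) were higher and 42 (0.291%) lower in young obese cells. The called genes lower in young obese cells included the senescence gene Cdkn2a, the growth factor Ptn, the Wnt agonist Rspo2, the detoxifying enzymes Ephx1 and Aox1, and Gsn, which cuts actin filaments. Those higher included the secreted peptide precursor Vgf, the hormone Stc2, the adhesion molecule Icam1, the bone-type phosphatase Alpl and the Wnt modulator Sfrp2. Differences were mostly modest (median size among called genes 0.77 in log2 units), and 10 called genes were over 2-fold higher and 20 over 2-fold lower. The median log2 difference over all genes tested was -0.0043. Median transcript length was 3982 bases for the called genes higher in young obese cells and 2544 for those lower, against 3222 over all genes tested. An unadjusted p below 0.05 was found for 2745 genes, 1282 higher (8.88%) and 1463 lower (10.1%).

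**Figure D1:**
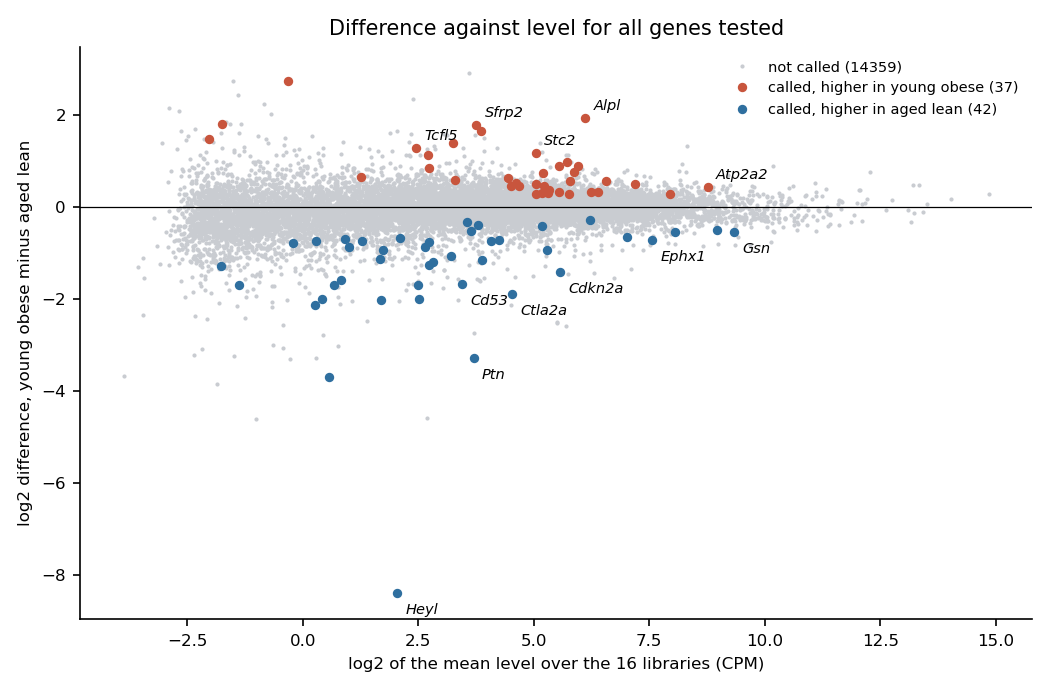
Each point is a gene, with its mean level over the 16 libraries on the horizontal axis (log2 CPM) and its log2 difference, young obese minus aged lean, on the vertical axis. The 37 called genes above the line and the 42 below it lie among many uncalled genes with differences of like size, and Heyl stands alone near -8.4.

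The number of calls depended strongly on which libraries were used and how their spread was estimated. A fit to the 16 libraries alone called 730 genes (5.32% of 13711), 313 higher and 417 lower, and 75 of the 79 genes were among them. DESeq2 called 394 genes and limma voom with quality weights 3788. When each close set of young obese libraries was summed to 1 sample, an alternative chosen after seeing the data, 0 genes were called, 1324 had an unadjusted p below 0.05 and the smallest adjusted p was 0.537. All 79 genes kept their direction in that fit and had an unadjusted p below 0.05. They were chosen on the same counts, so this is a description. In the summed fit young obese 1 and 2 formed 1 sample, 18, 19, 20, 21 and 23 another, and 22 stayed by itself. Leaving out single libraries gave 28 to 123 calls. The count fell to 37 without aged lean 11, 43 without 12, and 35 without 15 or 19. It was 33, 37, 44, 32, 35, 28 and 43 without young obese 1, 2, 18, 19, 20, 21 and 23. It was 119 without aged lean 17 and 123 without young obese 22. Without young obese 1 and 2 together 41 genes were called, and without aged lean 16 as well 46. Of the 79 calls, 18 held in all 17 fits that left out libraries, 4 higher and 14 lower. Many of the called genes described below are not among these 18.

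**Figure D2:**
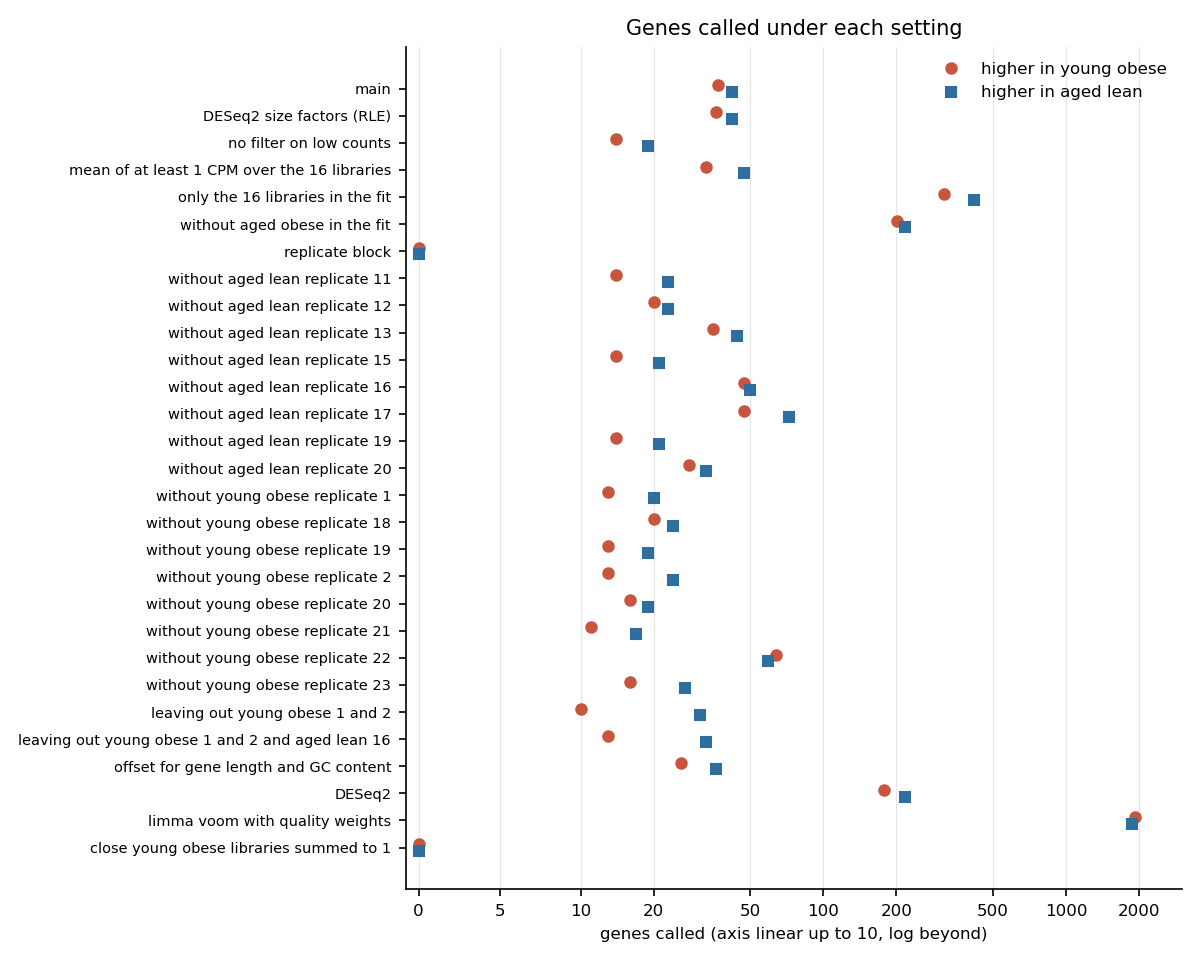
Each line is one setting of the analysis, with the number of genes called higher (circles) and lower (squares) in young obese cells on an axis that is linear up to 10 and logarithmic beyond. The reported fit with 37 and 42 calls lies between 0 calls with close libraries summed and 3788 calls with quality weights.

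Cdkn2a, which encodes the cell cycle inhibitor p16Ink4a and, in another reading frame, the p53 activator p19Arf, was the best known gene among the calls. Its level had a lowest value, median and highest value of 18.5, 24.4 and 35.3 CPM in young obese libraries and 50.4, 67.6 and 92.9 CPM in aged lean libraries. The groups did not overlap, and young obese 1 and 2 with 34.5 and 35.3 CPM were nearest to the aged lean libraries. The log2 difference was -1.42 (SE 0.25, 95% interval -1.94 to -0.91, adjusted p = 0.00672 by edgeR). Counts per gene do not separate the 2 products. Young lean libraries averaged 55.7 ± 22 CPM (SD, n = 8) and aged obese libraries 31.8 ± 16.9 (SD, n = 6). Single libraries crossed these means: 1 young lean library had 29.2 CPM and aged obese 15 had 57.8.

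The list of senescence and p53 response genes, which includes Cdkn2a, leaned the same way. Of 32 tested members, Cdkn2a included, 2 were called lower and none higher (0.547% of all genes were called). A negative difference was found for 25 and a positive one for 7, and the median was -0.25 against -0.0043 over all genes. At an unadjusted p below 0.05, 9 were lower and 1 higher, against 10.1% and 8.88% of all genes. It was -0.16 with an offset for transcript length and GC content. Trp53inp1, a p53 target that takes part in stress-induced death and autophagy, was the second called member, with 21.4, 26 and 36.2 CPM in young obese and 28.4, 51.0 and 80.9 CPM in aged lean libraries (-0.93, SE 0.22, edgeR adjusted p = 0.0406). Its groups overlapped and the call held in 4 of the 17 fits: the adjusted p was 0.0513 to 0.0972 without aged lean 11, 12, 15, 19 or 20 or without young obese 1, 2, 18, 19, 20, 21 or 22. Cdkn1a (p21) had 194 CPM at the median of young obese and 257 at that of aged lean libraries, a difference of -0.48 that missed the threshold (adjusted p = 0.0622). The p53 target Phlda3 had 125 to 182 CPM in young obese and 185 to 327 in aged lean libraries without overlap (adjusted p = 0.104). Not all members went this way: Zmat3 had 65.0 to 85.5 CPM in young obese and 54.0 to 87.2 in aged lean libraries (-0.0093, SE 0.115).

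Secreted growth factors and their modulators were called in both directions. Ptn encodes pleiotrophin, a heparin-binding growth factor. It had 1.57, 2.35 and 3.51 CPM in young obese and 2.91, 19.1 and 48.4 CPM in aged lean libraries, a log2 difference of -3.29 (SE 0.58, edgeR adjusted p = 0.00672). Only aged lean 16, at 2.91 CPM, fell within the young obese range. Vgf, the precursor of neuroendocrine peptides, had 10.8, 21.9 and 33.1 CPM in young obese and 3.84, 6.95 and 9.83 CPM in aged lean libraries, which did not overlap (1.65, SE 0.29, edgeR adjusted p = 0.00672). Stc2, stanniocalcin 2, is a secreted glycoprotein that dampens IGF release and responds to ER stress. It had 19.6, 47.9 and 58.9 CPM in young obese and 9.01, 21.8 and 28.3 CPM in aged lean libraries (1.18, SE 0.24, edgeR adjusted p = 0.0188), with young obese 22 alone inside the aged lean range. Without young obese 1 and 2 its adjusted p was 0.0588.

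In Wnt signalling, which holds progenitors undifferentiated or steers them towards bone, 2 of 35 tested members were called, in opposite directions. Over all genes 0.547% were called. Rspo2, an R-spondin that amplifies Wnt signals at the receptor, had 1.08, 2.83 and 4.02 CPM in young obese and 3.35, 7.75 and 15.3 CPM in aged lean libraries (-1.69, SE 0.34, edgeR adjusted p = 0.017). Sfrp2, a secreted frizzled-related protein that binds Wnt ligands, had 7.51, 20.7 and 33.9 CPM in young obese and 1.88, 6.62 and 8.15 CPM in aged lean libraries (1.78, SE 0.34, edgeR adjusted p = 0.0116). The overlap was small: young obese 1 and 23 for Rspo2 and young obese 23 for Sfrp2 reached into the aged lean range. The call of Sfrp2 was lost without young obese 1 and 2, the libraries with its highest levels (adjusted p = 0.0523). The list as a whole was balanced, with 19 positive and 16 negative differences.

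Among genes of the bone and cartilage lines Alpl alone was called of 22 tested (0.547% of all genes were called). Alpl, tissue-nonspecific alkaline phosphatase, had 31.8, 103 and 212 CPM in young obese and 7.13, 25.3 and 71.8 CPM in aged lean libraries (1.94, SE 0.41, edgeR adjusted p = 0.0234). Levels of 146 CPM or more were found in young obese 18, 19, 20 and 21 only, and the call was lost without any of young obese 19, 20 and 21 or aged lean 11 and 15 (adjusted p 0.0533 to 0.0666). Sp7, the transcription factor osterix, had medians of 16.1 and 5.78 CPM (1.11, adjusted p = 0.0747). The list did not move as one: 16 of its 22 members had a negative difference (median -0.54, and -0.32 to -0.35 without aged lean 11, 15 or 16), among them Mgp, an inhibitor of calcification, with medians of 10.4 and 51.3 CPM (-1.49, adjusted p = 0.0758).

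**Figure D3:**
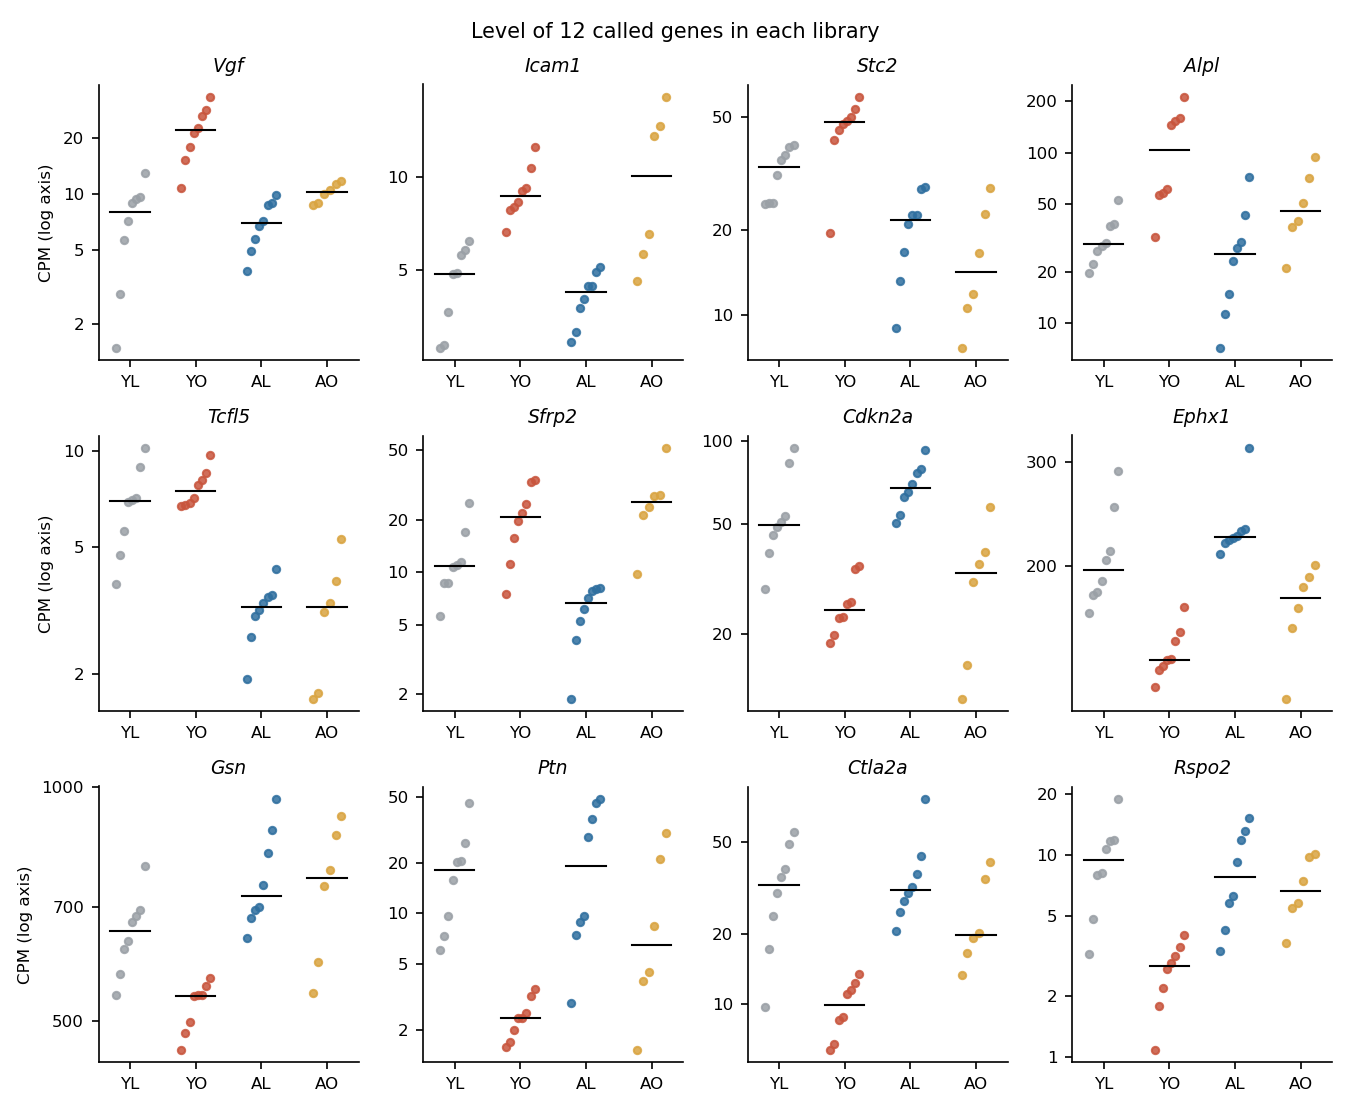
Points are libraries and bars their medians, for 12 called genes in young lean (YL), young obese (YO), aged lean (AL) and aged obese (AO) cells, with CPM on log axes. Cdkn2a, Ephx1, Gsn, Ctla2a, Vgf, Tcfl5 and Icam1 show no overlap between the young obese and aged lean libraries, while Ptn, Rspo2, Sfrp2, Stc2 and Alpl do.

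The called enzyme genes Ephx1, Aox1 and Dhrs9 were lower in young obese cells. Ephx1, microsomal epoxide hydrolase, had 124, 139 and 170 CPM in young obese and 209, 224 and 317 CPM in aged lean libraries. The groups did not overlap and the log2 difference was -0.71 (SE 0.11, edgeR adjusted p = 0.00446, the smallest found and shared with Ctla2a, Tcfl5 and Capn6). Aox1, aldehyde oxidase, had 4.47 to 6.95 CPM in young obese and 8.32 to 18.3 in aged lean libraries, again without overlap (-1.06, SE 0.21, edgeR adjusted p = 0.0151). Dhrs9, a retinol dehydrogenase, had medians of 1.77 and 8.62 CPM with overlap (-2.01, SE 0.40, edgeR adjusted p = 0.017), and its call was lost without young obese 1 and 2 (0.0524). In the list of Nrf2 and glutathione genes 0 of 31 were called and 25 had a negative difference, with a median of -0.22 and 9 lower at an unadjusted p below 0.05 (background 10.1%). With the offset for transcript length and GC content the median was -0.12. The fit of the 16 libraries alone called 2 members of this list lower (5.32% of all genes were called in that fit).

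Among genes of the cytoskeleton and surface, Gsn had 459, 539 and 567.5 CPM in young obese and 639, 725 and 966 CPM in aged lean libraries without overlap. Its log2 difference was -0.55 (SE 0.10, edgeR adjusted p = 0.00912). Cd53, a tetraspanin known mainly from leukocytes, had 2.41, 4.06 and 14 CPM in young obese and 7.53, 13.2 and 33.2 CPM in aged lean libraries (-1.68, SE 0.33, edgeR adjusted p = 0.0151). Only young obese 22 lay in the aged lean range. The leukocyte gene Ptprc was near 0 in these libraries, as given above. Icam1, the ligand of leukocyte integrins and a preadipocyte marker, had 6.66, 8.64 and 12.5 CPM in young obese and 2.94, 4.24 and 5.13 CPM in aged lean libraries without overlap (1.13, SE 0.23, edgeR adjusted p = 0.0189). It was the only called member of the 25 tested chemokine and cytokine genes (0.547% of all genes were called). Its call was lost without young obese 21 (0.0546).

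The remaining genes chosen by the rule differed by less or have less studied roles in fat. Tcfl5, a transcription factor best known from the testis, had 6.71 to 9.70 CPM in young obese and 1.92 to 4.24 CPM in aged lean libraries without overlap (1.29, SE 0.21, edgeR adjusted p = 0.00446). Ctla2a, a cathepsin inhibitor, had 6.32 to 13.5 and 20.6 to 76.9 CPM, also without overlap (-1.90, SE 0.31, edgeR adjusted p = 0.00446). Cmah, which hydroxylates sialic acid, had 46.8 to 75.7 and 20.1 to 53.5 CPM (0.89, adjusted p = 0.017 by edgeR), and Tbl2 had 42.2 to 73.9 and 33.1 to 57.2 CPM (0.56, adjusted p = 0.0188). Jph1, Wnk3, Dnajc21 and Hs6st2 were called higher by 0.47 to 0.85, and Ankrd13d, Mknk2 and Itga2b lower by -0.29 to -0.76. Of these, Jph1, Wnk3, Dnajc21, Hs6st2, Mknk2 and Itga2b lost their calls without young obese 1 and 2 (adjusted p 0.0523 to 0.0794). Hs6st2 also lost it without aged lean 12 or 19 or young obese 1 or 2 (0.0514 to 0.0574), and Itga2b without aged lean 15 (0.0512) or young obese 21 (0.0543). With an offset for transcript length and GC content, 62 genes were called, 48 of them among the 79, and 4 genes named here were not: Cmah (adjusted p = 0.064), Tbl2 (0.0978), Mknk2 (0.0668) and Sqstm1 (0.057).

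Of the study's keyword genes, Itih2, a hyaluronan-binding inter-alpha-trypsin inhibitor chain, was called. It had 2.6, 3.28 and 7.22 CPM in young obese and 6.38, 8.64 and 13.5 CPM in aged lean libraries (-1.26, SE 0.26, edgeR adjusted p = 0.0199), and lost its call without young obese 19, 20 or 21 (0.0527 to 0.0547). Cd44, the hyaluronan receptor, had medians of 243 and 242 CPM (-0.15, SE 0.26). Dusp6, a phosphatase that ends ERK signalling, had medians of 13.9 and 21.6 CPM with wide overlap (-0.10, SE 0.33). The transcription factor gene Nfatc2 had at most 0.461 CPM in young obese libraries, and of the aged lean libraries number 16 had 14.1 and number 15 had 2.25 CPM while the rest stayed at or below 0.47 CPM. Its difference of -3.29 was not called (SE 1.03, edgeR adjusted p = 0.109).

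Heyl, a Notch target, had the largest difference of all called genes, and it rested on the same aged lean libraries. Its levels were 47.1, 13.9 and 4.49 CPM in aged lean 16, 15 and 11, at most 0.231 CPM in the other aged lean libraries and at most 0.0729 CPM in young obese libraries. The fitted value of -8.40 (SE 1.98, edgeR adjusted p = 0.044) depends on the prior count and is no measure of size. The call was lost without aged lean 16 (0.0762), 15 (0.078), 11 (0.0743) or 19 (0.0519), and without any 1 of young obese 1, 2, 18, 19, 20, 21, 22 and 23 (0.0524 to 0.0903), or without young obese 1 and 2 together (0.0978). It was the only called member of 14 Notch genes tested (0.547% of all genes were called), and 11 of the 14 had a negative difference. The median difference of the list changed sign with single libraries: it was -0.34 without young obese 1 and 0.0089 without aged lean 15.

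Genes of protein folding and secretion in the endoplasmic reticulum (ER) leaned towards young obese cells. Of 32 members of the unfolded protein response and secretory list 0 were called and 24 had a positive difference, with a median of 0.17. At an unadjusted p below 0.05, 15 were higher and 1 lower, against 8.88% and 10.1% of all genes, and 24 of 32 lay within 1.5-fold. In the fit of the 16 libraries alone, 4 members were called higher and 0 lower (5.32% of all genes in that fit). Hyou1, an ER chaperone, had 301 to 374 CPM in young obese and 221 to 323 CPM in aged lean libraries (0.39, SE 0.11, adjusted p = 0.071). Atf6, a sensor of unfolded proteins, had medians of 59.1 and 46.6 CPM (0.36, adjusted p = 0.0877), whereas the effector Xbp1 differed by -0.03 (adjusted p = 0.895).

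ER chaperone genes are known to carry the ER stress response element in their promoters, a pair of short sites bound by NF-Y and by ATF6. The element was searched as CCAAT, any 9 bases, then CCACG, on both strands in the 250 bases before the start site of each RefSeq gene (GRCm38.p6). It was found in 35 of 27025 genes (0.13%) and in 8 of the 27 list members with a promoter sequence. The windows below show it in 4 chaperone genes of the list, with the sites in capitals (CGTGG and ATTGG where the element is reversed) and 10 bases on each side, written along the gene's strand.

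Hspa5, chr2:34772015-34772053, plus strand: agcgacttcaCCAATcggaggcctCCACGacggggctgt

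Hsp90b1, first, chr10:86705628-86705666, minus strand: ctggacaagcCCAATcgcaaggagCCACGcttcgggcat

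Hsp90b1, second, chr10:86705523-86705561, minus strand: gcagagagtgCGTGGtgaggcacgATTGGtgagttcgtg

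Dnajc3, chr14:118937817-118937855, plus strand: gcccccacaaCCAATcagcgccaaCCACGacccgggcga

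Pdia6, chr12:17266481-17266519, plus strand: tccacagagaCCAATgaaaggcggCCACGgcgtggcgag

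The 8 members with the element had differences above 0 and a median of 0.21, and 6 had an unadjusted p below 0.05. The 19 members without it had a median of 0.11, with 12 positive and 7 past the same unadjusted threshold. Hspa5 (BiP) had 2102 to 2993 CPM in young obese and 1468 to 3028 CPM in aged lean libraries (0.33, adjusted p = 0.21), and Hsp90b1 (GRP94) 1366 to 1532 and 1054 to 1605 CPM (0.26, adjusted p = 0.157). Dnajc3, an inhibitor of the kinase PERK, differed by 0.23 (adjusted p = 0.122) and the disulphide isomerase Pdia6 by 0.13 (adjusted p = 0.471). None of these 4 genes was called. Of the 64 called genes with a promoter sequence 1 held the element. A match describes the sequence and does not show that a factor was bound.

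Genes of the ribosome and the respiratory chain leaned towards aged lean cells. For ribosomal proteins all 76 tested members had a negative difference (-0.40 to -0.10, median -0.24), 0 were called, 21 had an unadjusted p below 0.05 and 66 lay within 1.5-fold. Rpl7a, a large-subunit protein chosen as an example after its values were seen, had 912 to 1024 CPM in young obese and 1029 to 1355 CPM in aged lean libraries (-0.21, adjusted p = 0.195). For nuclear genes of oxidative phosphorylation 69 of 75 were negative, with a median of -0.18, 0 called and 19 below an unadjusted p of 0.05. These transcripts are short, with median lengths of 1100 and 1141 bases against 3222 over all genes tested, and the slope on length differed between the groups as given above. With the offset for length and GC content the medians were -0.08 and -0.04, and without young obese 1 and 2 the respiratory median was -0.10. In the fit of the 16 libraries alone, 12 ribosomal and 7 respiratory genes were called lower and 0 higher (5.32% of all genes in that fit). How much of the lists' difference goes with transcript length was not tested further. Reads of ribosomal protein genes can also be split with pseudogenes.

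Other lists leaned in 1 direction with 0 or 1 called members (0.547% of all genes were called). With the 16 libraries alone, 5.32% of all genes were called. That fit called 3 interferon and MHC class I genes and 6 lysosome and autophagy genes lower, and 0 of either list higher. Interferon and MHC class I genes were negative in 38 of 46 cases, with a median of -0.33, 12 below an unadjusted p of 0.05 and 0 called; B2m, the light chain of MHC class I, had 264 to 308 CPM in young obese and 302 to 417 CPM in aged lean libraries (-0.40, adjusted p = 0.0614). Lysosome and autophagy genes were negative in 33 of 37 cases, with a median of -0.15 that was -0.23 without young obese 1 and -0.33 without young obese 1 and 2. Their called member was Sqstm1 (p62), the autophagy receptor, with 355, 420 and 450.2 CPM in young obese and 465, 559 and 761 CPM in aged lean libraries without overlap (-0.51, SE 0.12, edgeR adjusted p = 0.0406). Sqstm1 held in 5 of the 17 fits. Its adjusted p was 0.0502 to 0.087 without aged lean 12, 16, 17 or 19 or young obese 1, 2, 18, 19, 20, 21 or 23, and 0.104 without young obese 1 and 2.

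Targets of YAP and TEAD, the effectors of the Hippo pathway that respond to cell shape and stiffness, were positive in 16 of 18 cases (median 0.33, 7 below an unadjusted p of 0.05, 0 called). The median was 0.20 without young obese 1 and 2 and 0.14 without these and aged lean 16. With the 16 libraries alone 2 members were called higher and 0 lower (5.32% of all genes in that fit). Ccn2, connective tissue growth factor, had 1314 to 1760 CPM in young obese and 193 to 1115 CPM in aged lean libraries. The groups did not overlap, but it was not called (0.89, SE 0.36, adjusted p = 0.182). Markers of mural cells, many of them contractile genes that stromal cells also express in culture, moved alongside: 9 of 12 were positive (median 0.46), 5 higher and 2 lower at an unadjusted p below 0.05 and 0 called. Their summed level was 7177 to 9279 CPM in young obese and 5796 to 7799 CPM in aged lean libraries, mostly from Acta2 and Tagln. The pericyte markers Kcnj8 and Higd1b were at or near 0 in both groups, while Cspg4 had 6.25 to 13.6 CPM in young obese and 11.1 to 43.1 in aged lean libraries. Rgs5 had at most 0.757 and 1.65 CPM, Abcc9 at most 7.3 and 1.86, and Mcam and Notch3 had medians of 23.3 to 33.5 CPM with overlap. What part these cells or genes have in the YAP list was not tested.

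Cell cycle genes were positive in 43 of 46 cases with a median of 0.36, but 0 were called and 1 had an unadjusted p below 0.05. The median was 0.22 without young obese 22, 0.55 without aged lean 17 and 0.65 without young obese 1 and 2. The list's median level varied between libraries of a group by an SD of up to 1.09 on the log2 scale. Mki67, a marker of dividing cells, had 36.0 to 209 CPM in young obese and 19.8 to 172 CPM in aged lean libraries (0.50, SE 0.49).

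**Figure D4:**
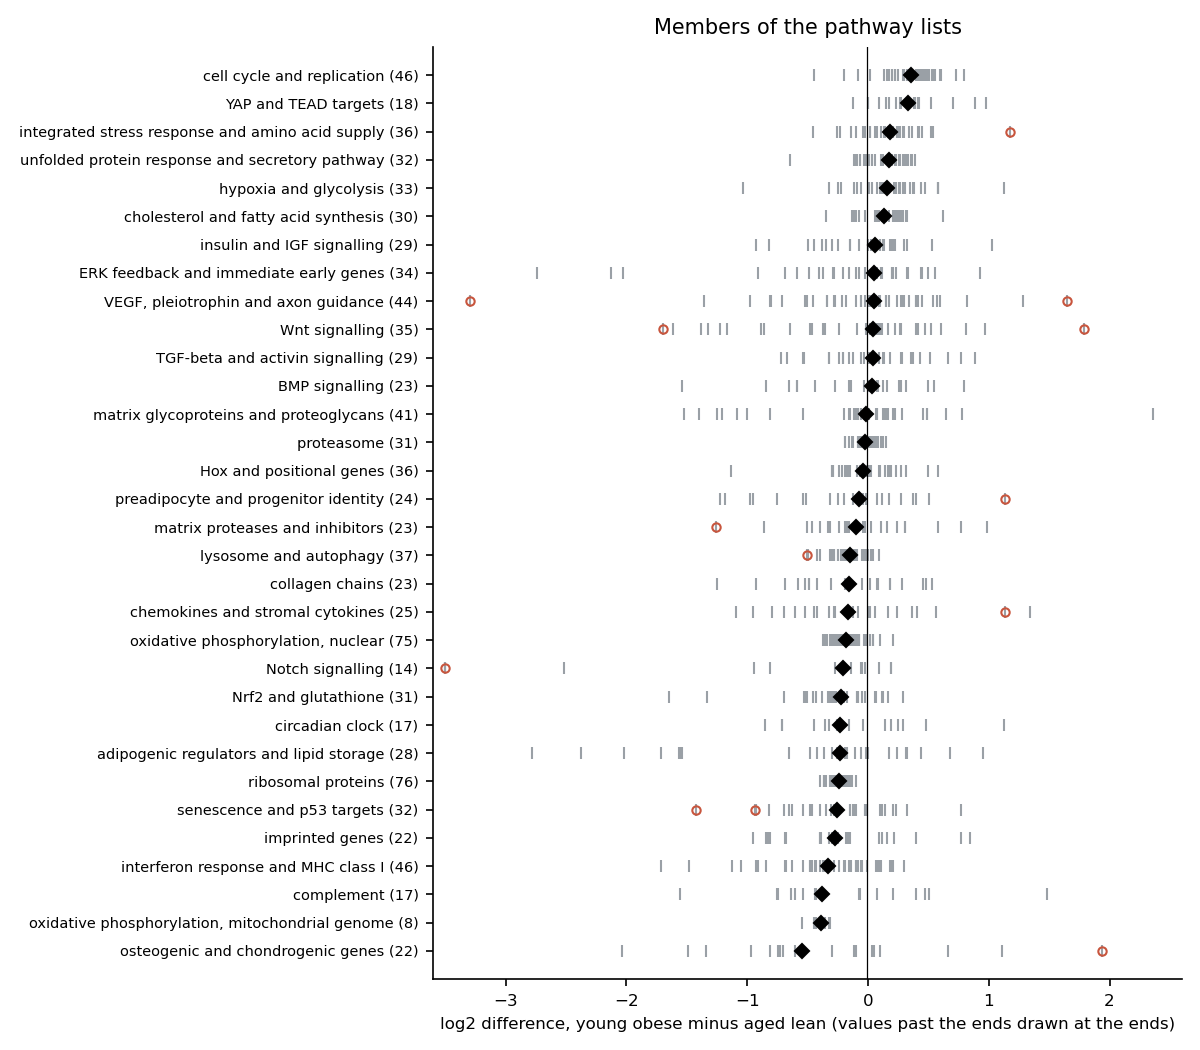
Ticks are the tested members of each pathway list (number in brackets), diamonds the list medians and open circles the called members, by log2 difference, young obese minus aged lean; values past the ends are drawn at the ends. Ribosomal proteins lie wholly left of the line and nearly all cell cycle genes right of it, and 10 of 32 lists hold a called gene.

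At least 1 called gene was held by 10 of the 32 pathway lists. The share of all genes called was 0.547%, and the number of lists was not tested against it. Without young obese 19, 20 or 21 the number was 6, 6 and 4. In collagen chains, cholesterol and fatty acid synthesis, TGF-beta signalling, insulin and IGF signalling and positional Hox genes 0 members were called.

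The groups were alike for many genes in the sense that the 95% interval of the difference lay wholly within 1.5-fold. This was so for 7908 genes (54.8%). With close young obese libraries summed it was so for 5364 genes. All 31 proteasome genes were alike, with differences of -0.19 to 0.15, and 66 of 75 nuclear genes of oxidative phosphorylation, 23 of 30 genes of cholesterol and fatty acid synthesis and 23 of 36 Hox and positional genes were too. Examples were chosen after their values were seen. Thy1, a stromal surface marker, had 791 to 883 CPM in young obese and 751 to 1018 CPM in aged lean libraries (-0.07, SE 0.09). The core kinase gene Akt2 differed by 0.03 (SE 0.09), the Wnt effector Ctnnb1 by 0.10 (SE 0.10) and the autophagy gene Becn1 by -0.04 (SE 0.05). Lists whose members vary widely between mice held few alike genes, such as 5 of 23 collagen chains, 1 of 46 cell cycle genes and 0 of 17 complement genes. The fit of the 16 libraries alone called 2 collagen chains lower (5.32% of all genes were called in that fit).

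Complete separation was rare. The 8 young obese and 8 aged lean libraries did not overlap in 142 genes (0.984%), 69 higher and 73 lower in young obese cells, and 35 of the 79 called genes were among them. Leaving out young obese 1 and 2 gave 323 such genes and leaving out aged lean 16 gave 228, since fewer libraries separate more easily.

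Levels of the 24 genes chosen by the rule were set beside the young lean libraries, which both differences share. Young obese also differed from young lean cells at an adjusted p below 0.05 in 17 of the 24 genes (8.83% of all genes), and aged lean cells in 0 (0.0% of all genes). The genes were chosen on a contrast that holds the same young obese and aged lean libraries, so these counts are a description. For aged lean minus young lean, 773 of all genes and 8 of the 24 had an unadjusted p below 0.05. For Vgf the differences from young lean were 1.59 in young obese and -0.05 in aged lean cells, for Ptn -2.98 and 0.31, for Rspo2 -1.86 and -0.16 and for Ephx1 -0.55 and 0.16. In 6 of the 24 genes the larger value was on the aged lean side: Tcfl5 with 0.18 and -1.10, Cd53 with -0.25 and 1.43, Sfrp2 with 0.77 and -1.02, Stc2 with 0.50 and -0.67, Tbl2 with 0.23 and -0.34 and Mknk2 with -0.14 and 0.15. In aged obese cells Tcfl5 had 3.18 ± 1.37 CPM (SD, n = 6), near the aged lean mean of 3.16 ± 0.686 (SD, n = 8), and Sfrp2 had 26.8 ± 13.7 CPM, near the young obese mean of 20.9 ± 9.50.

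**Figure D5:**
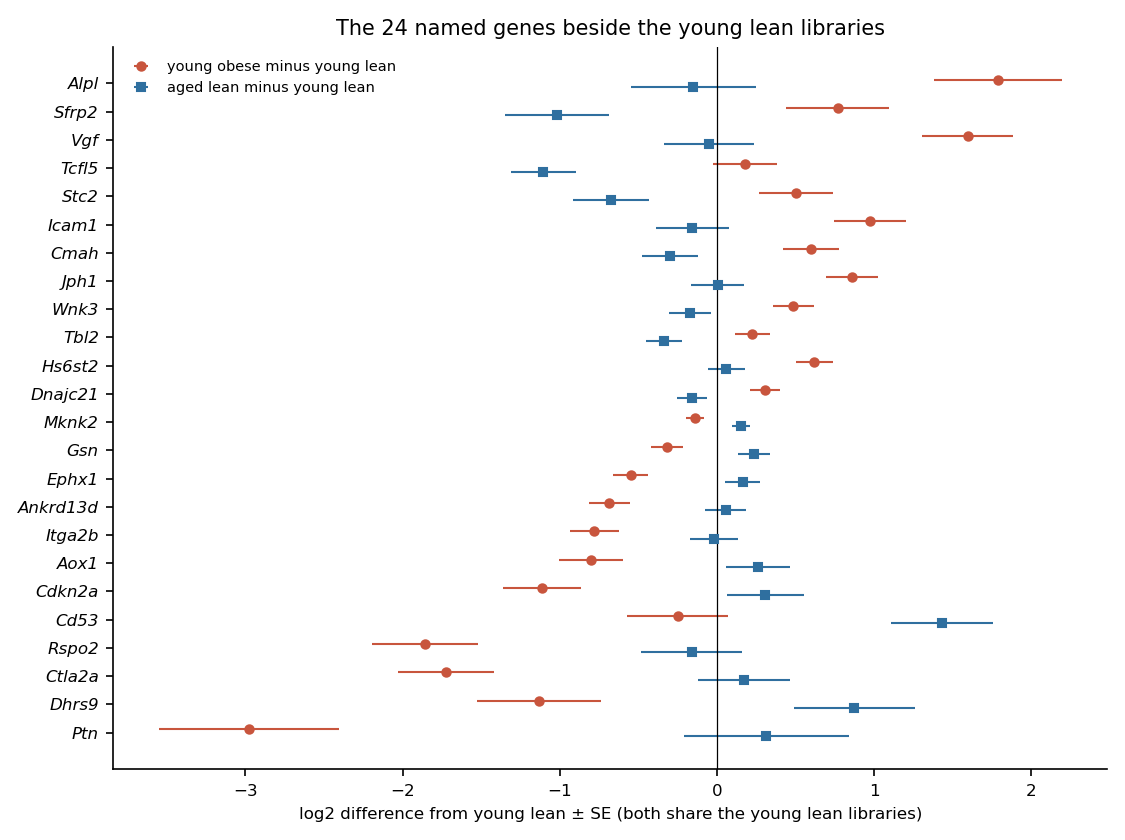
For the 24 genes chosen by the rule, circles show young obese minus young lean and squares aged lean minus young lean as log2 differences with SE, and both use the same 8 young lean libraries. Most genes have the larger value in young obese cells (Ptn -2.98, Vgf 1.59), and Tcfl5 and Cd53 in aged lean cells (-1.10 and 1.43).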

How the data were processed

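Per the labels and the deposited sample overview, RNA of adipose-derived stem cells was sequenced from 8 young obese and 8 aged lean mice, beside 8 young lean and 6 aged obese mice. The authors deposited unnormalized read counts, 1 line per mouse gene with its Ensembl ID. The submitters' processing notes name STAR, DESeq2 1.12.4 and HTSeq 0.7.0, so these steps are given per the submitters' processing notes. The build, annotation and strand setting are not given in the sources used here. Without a known strand setting, reads of overlapping and antisense genes cannot be told apart. Lines that named no gene (5) were left out. A symbol was found for 36639 of 38561 genes.

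Genes were filtered with filterByExpr by group and libraries scaled with TMM in edgeR 4.0.16 (R 4.3.3). All 30 libraries entered a quasi-likelihood model with a term for each group, and young obese minus aged lean was tested for 14438 genes with Benjamini-Hochberg adjustment (called below 0.05). Summing close young obese libraries was an alternative chosen after seeing the data. All adjusted p-values are from this fit unless another tool (limma 3.58.1, DESeq2 1.42.0) is named. The median SD of log2 CPM was 0.264 in young obese, 0.298 in aged lean and 0.383 in aged obese libraries, so the shared spread is wider than that of the compared groups. Genes were alike where the 95% interval lay within 1.5-fold. Levels are CPM on TMM-scaled totals and are not adjusted for length, so they compare libraries and not genes. The edgeR p-values set a difference against a spread estimated from all 30 libraries, young lean and aged obese included. They treat libraries as independent, which the close sets may not be.

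Named are up to 12 genes in each direction with a mean of at least 2 CPM that stayed called in all 17 fits without libraries (each of 16 in turn, and young obese 1 and 2 together), filled by adjusted p, then called list members, keyword genes and sort markers. The genes compared were all that passed the filter on level. The 32 pathway and 9 cell type lists were chosen with earlier results of these data known. Promoter sequences were from RefSeq (GRCm38.p6).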

Additional observations from a re-analysis of the deposited data

Results flagged for a closer look

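Among 33 named genes in the 2 groups (66 pairs of gene and group), 11 had a single library far from the other 7 by Dixon's criterion, which chance alone flags in about 1 in 20 groups. Young obese 22 gave 4 of them: its levels were lowest for Tbl2 (42.2 CPM, others 61.7 to 73.9) and Stc2 (19.6, others 41.4 to 58.9) and highest for Cd53 (14, others 2.41 to 6.28) and Cd44 (413, others 214 to 271). Young obese 1 was lowest for Ly6a (550.0, others 689 to 811), and young obese 23 was highest for Heyl at 0.0729 CPM (others up to 0.0294), a matter of very few counts. Aged lean 16 was highest for Heyl (47.1, others up to 13.9), Cd44 (611, others 142 to 359) and Nfatc2 (14.1, others 0.124 to 2.25). Aged lean 15 was highest for Ctla2a (76.9, others 20.6 to 43.6) and aged lean 12 for Ephx1 (317, others 209 to 231). Tbl2, Stc2, Cd53, Ctla2a and Ephx1 stayed called with their single library left out.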

How the results depend on the processing

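Besides the reported fit 28 settings were run, 27 of them planned. In number, the 79 calls stayed within 1.5 times with DESeq2 size factors (78), a filter at a mean of 1 CPM (80) and an offset for length and GC content (62, of which 48 were among the 79). They became 33 with no filter, 730 with the 16 libraries alone, 418 without aged obese libraries, 41 without young obese 1 and 2, 46 without these and aged lean 16, 394 with DESeq2, 3788 with limma voom and quality weights, 0 with close young obese libraries summed (chosen after seeing the data), and 28 to 123 with single libraries left out. Labels give young obese and aged lean mice only numbers, of which 19 and 20 occur in both; these are different mice, so the numbers pair nothing (r across genes of deviations 0.256 and 0.219 for equal, 0.196 and 0.167 for unequal numbers). With the number as a replicate block 0 genes were called, 465 had an unadjusted p below 0.05 and the smallest adjusted p was 0.18, and 0 of the 32 lists held a call. Only numbers 19 and 20 link the 2 groups, so the difference in the block fit rests on them, and its 0 calls say little. Lists with a called member, 10 as reported, were 28 with the 16 libraries alone, 22 without aged obese libraries, 22 with DESeq2, 31 with limma voom, 6 without young obese 1 and 2 and aged lean 16, 0 with close libraries summed and 4 to 13 with single libraries left out. Alike genes, 7908 as reported, were 7396 to 8419 in the other edgeR fits, 9784 with limma voom, 5364 with close libraries summed and 2301 with the replicate block. Genes without overlap, 142, were 139 with DESeq2 size factors, 323 without young obese 1 and 2, 228 without aged lean 16 and 438 without all 3. No named gene that was called changed direction in any setting. The causes of these shifts were not tested, except that fewer libraries overlap less often by construction. Depth was at least 32053761 counts in each of the 16 libraries and limits only genes near the filter, such as Heyl in young obese cells.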
